A study of Mus musculus with 14 samples.

Results

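The B7 family ligands are surface proteins that tell a T cell whether to act on the antigen it sees. Cd274 and Pdcd1lg2 encode PD-L1 and PD-L2, the ligands of the inhibitory receptor PD-1. Cd80 and Cd86 encode the ligands of the activating receptor CD28 and of its inhibitory counterpart CTLA-4, and Icosl encodes the ligand of the costimulatory receptor ICOS. Cd276 encodes B7-H3, a family member common on tumor and stromal cells. RGMb, encoded by Rgmb, is a membrane-anchored co-receptor for bone morphogenetic proteins (BMPs) that also binds PD-L2, and Neo1 encodes neogenin, the receptor of the RGM proteins. Interferon-gamma induces PD-L1 through IRF1, and PD-L2 also responds to IL-4 and IL-13 through STAT6.

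These 8 genes, of 53801 in the files, were chosen by family membership, with their level in these same tumors already known, both as CPM (read count scaled by library size) and as TPM (scaled also by transcript length). Their differences between groups are therefore given as descriptions, with standard errors and without a test of their own. All 8 passed the filter on low counts.

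The 14 libraries were whole subcutaneous tumors of CT26, a mouse colon carcinoma line, grown in young female Balb/c mice. The line carried a barcode library, each mouse received cells in both flanks, and treatment by repeated intraperitoneal injection began once tumors were palpable. Control IgG (clone 2A3) was given to the mice of 5 tumors. Anti-PD-1 (clone 1A12) was given to the mice of 5 tumors labelled responders and 4 labelled non-responders, classes that the study set by tumor size at the end of treatment relative to the control tumors. The groups came from 4, 4 and 3 mice, and tumors are named by mouse and flank. Tumors 14L and 14R (control IgG), 30L and 30R (responders) and 33L and 33R (non-responders) share a mouse by these numbers.

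The tumors held between 33237744 and 48481461 counted fragments. The mean fragment length lay between 268.7 and 277.7 bases in control tumors, between 269.5 and 277.0 for responders and between 277.5 and 287.8 for non-responders, with 33R at the top. Tumors 33R and 14R stood apart from the rest of their groups in their counts over all genes, with a chi-square per degree of freedom of 135 to 196 between 33R and the other non-responders, which had 32.8 to 37.7 among themselves, and of 67.1 to 90.1 between 14R and the other control tumors, which had 21.2 to 38.1. Of the markers of colon epithelium, Krt20 lay between 202 and 489 CPM, while Vil1 and Cdx2 did not exceed 0.174 and 0.68 CPM in any tumor. In bulk tumors, fewer cells of a type and less RNA per cell cannot be told apart.

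Cd274 and Pdcd1lg2 lie side by side on chromosome 19 of GRCm38, on the plus strand, at 29367455 to 29388095 (ENSMUSG00000016496) and 29410919 to 29471161 (ENSMUSG00000016498), with 22823 bases between them. Rgmb lies at 15803188 to 15831039 on the minus strand of chromosome 17 (ENSMUSG00000048027). Cd80 (ENSMUSG00000075122, 38455561 to 38496335, plus strand) and Cd86 (ENSMUSG00000022901, 36603869 to 36666081, minus strand) are both on chromosome 16. Cd276 (ENSMUSG00000035914, 58524298 to 58555437) and Neo1 (ENSMUSG00000032340, 58874687 to 59036441) are both on the minus strand of chromosome 9, and Icosl (ENSMUSG00000000732, 78069302 to 78083913, plus strand) is on chromosome 10. All are protein-coding genes. Annotated antisense genes overlap Cd274, Pdcd1lg2 and Neo1, and another gene on the opposite strand, Gm10657, overlaps Cd276. Since no strand setting is stated, the reads of these genes and those of the members cannot be told apart. The antisense gene at Pdcd1lg2, A930007I19Rik, reached at most 0.845 CPM.

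The 250 bases before the RefSeq start of the 3 members with the widest group differences are shown because these genes were all higher in responders. Capitals mark a match to the STAT6-type spacing TTCNNNNGAA. The windows, read 5′ to 3′ on the gene's strand from GRCm38.p6, are chr19:29367188-29367437 (plus), chr19:29410669-29410918 (plus) and chr17:15831066-15831315 (minus).
Cd274: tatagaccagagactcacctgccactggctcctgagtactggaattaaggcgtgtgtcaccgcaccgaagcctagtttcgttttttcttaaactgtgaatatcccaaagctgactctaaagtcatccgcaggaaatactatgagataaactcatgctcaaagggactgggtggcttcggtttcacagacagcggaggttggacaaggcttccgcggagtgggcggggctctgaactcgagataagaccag
Pdcd1lg2: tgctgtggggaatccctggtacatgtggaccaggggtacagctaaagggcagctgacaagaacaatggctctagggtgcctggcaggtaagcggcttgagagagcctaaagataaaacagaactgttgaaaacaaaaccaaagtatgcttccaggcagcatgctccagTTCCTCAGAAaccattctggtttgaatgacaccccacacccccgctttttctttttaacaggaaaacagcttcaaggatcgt
Rgmb: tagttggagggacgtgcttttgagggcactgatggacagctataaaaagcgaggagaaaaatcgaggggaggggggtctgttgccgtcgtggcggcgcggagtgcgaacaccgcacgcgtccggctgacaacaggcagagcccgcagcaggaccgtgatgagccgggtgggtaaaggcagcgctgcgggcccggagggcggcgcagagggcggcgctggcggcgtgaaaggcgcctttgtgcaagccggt
The Pdcd1lg2 window holds TTCCTCAGAA from position -82 to -73 relative to the start, and 5.85% of the 32817 promoter windows of this length in the table hold such a match. No match to the IRF-type GAAANNGAAA (2.97% of windows) or to the GAS-type TTCNNNGAA (7.01%) was found on either strand in a window of the 7 members the table covers, Cd86 not being among them. TTCNNNGAA and TTCNNNNGAA read the same on both strands. Each is a match of letters, not evidence of a bound site, and RefSeq gives Rgmb 2 further starts that are not printed.

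On the TPM scale, which is per transcript length and allows levels of different genes to be compared, Neo1 and Rgmb were the most abundant of the 8 transcripts and Pdcd1lg2 the least. In control tumors, the mean level was 26.1 TPM ± 5.35 (SD, n = 5) for Neo1 and 22.1 TPM ± 1.65 for Rgmb, and these overlapped within 1 SD. Cd80 followed at 12.3 TPM ± 0.722, then Cd274 at 9.78 TPM ± 1.94, Cd86 at 7.52 TPM ± 1.65 and Cd276 at 6.88 TPM ± 0.77, each overlapping the next within 1 SD. Icosl, at 3.09 TPM ± 0.382, and Pdcd1lg2, at 0.89 TPM ± 0.371, stood apart from their neighbours at the low end.

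In responders, Rgmb came first at 39.0 TPM ± 4.16 (SD, n = 5), more than 1 SD clear of Neo1 at 27.1 TPM ± 1.76. Cd274 moved ahead of Cd80, with means of 18.1 TPM ± 7.84 and 16.1 TPM ± 1.2 that overlapped within 1 SD, and Pdcd1lg2, at 3.17 TPM ± 2.33, overlapped Icosl at 3.65 TPM ± 0.553. Non-responders kept the order of the control tumors except that Cd276 (6.23 TPM ± 1.94, n = 4) and Cd86 (6.17 TPM ± 0.991) changed places within their spread.

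**Figure D1:**
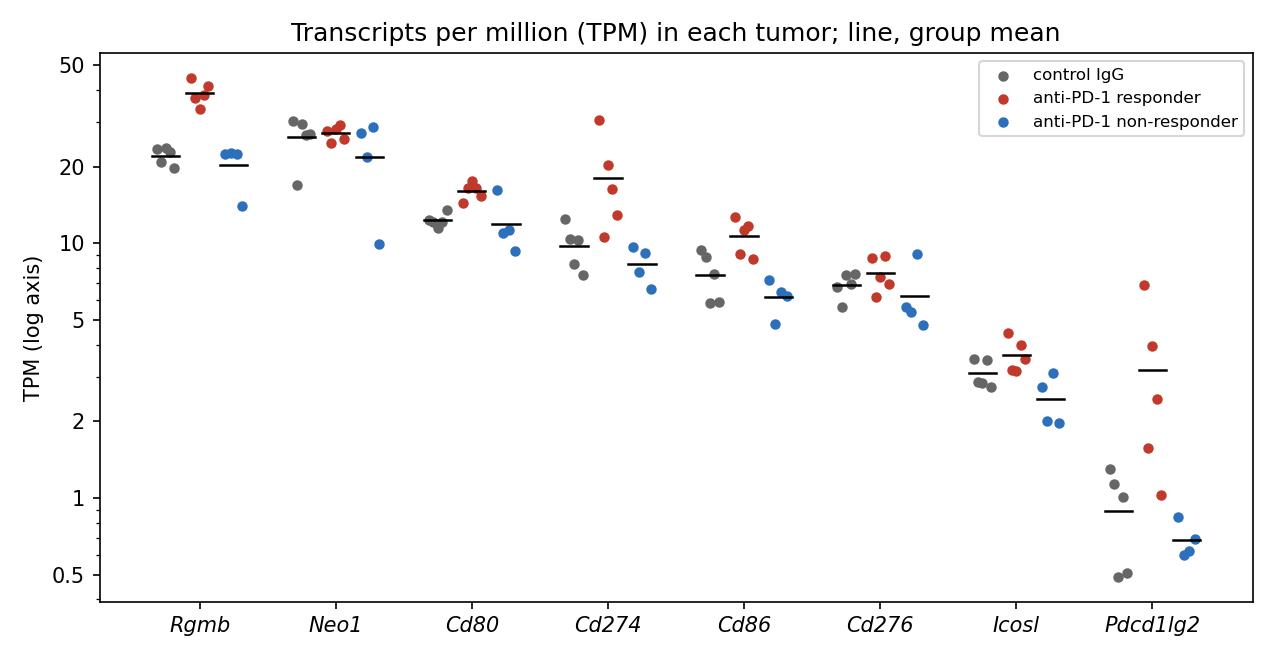
Level of each of the 8 genes in TPM (log axis) in every tumor, with a point per tumor, colors for the 3 groups and a line at the group mean. Rgmb is the highest transcript in responders, with a mean of 39.0 TPM against 22.1 in control tumors, and Pdcd1lg2 is the lowest in control tumors, at 0.89 TPM.

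Within groups, the level of Cd274, the gene of PD-L1, was tight in non-responders and wide in responders. Its CPM was 33.6, 32.6, 23.8, 29.6 and 22.2 in control tumors 14L, 14R, 16R, 17R and 20R. The responders 24L, 26R, 30L, 30R and 35L had 79.3, 28.7, 55.4, 40.8 and 34.7 CPM. The non-responders 29L, 32R, 33L and 33R had 28.2, 24.1, 25.8 and 26.1 CPM. Responder 26R lay inside the control range and 35L barely above it, while 24L had the highest level of all. All responders exceeded all non-responders, though 26R and 29L differed by little. The log2 fold change was 0.75 ± 0.22 (SE) for responders against control IgG, 0.87 ± 0.24 against non-responders, and -0.12 ± 0.24 for non-responders against control IgG.

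Pdcd1lg2, the gene of PD-L2, had the largest fold change of the 8 genes and the fewest reads. Control tumors 14L, 14R, 16R, 17R and 20R had 1.45, 1.47, 0.578, 1.18 and 0.617 CPM. The responders 24L, 26R, 30L, 30R and 35L had 7.31, 1.75, 4.44, 2.5 and 1.13 CPM, and the non-responders 29L, 32R, 33L and 33R had 0.997, 0.764, 0.708 and 1.11 CPM. Of the 5 responders, 4 lay above every control tumor, and 35L lay inside the control range and just above the highest non-responder. Pdcd1lg2 had a log2 fold change of 1.69 ± 0.45 (SE) for responders against control IgG and 1.94 ± 0.49 against non-responders, and it was -0.25 ± 0.48 for non-responders against control IgG.

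PD-L2 transcripts were few beside those of PD-L1 in every tumor. The ratio of Pdcd1lg2 to Cd274 in TPM was 0.0879 ± 0.0228 (SD, n = 5) in control tumors, 0.16 ± 0.0549 (n = 5) in responders and 0.0839 ± 0.0155 (n = 4) in non-responders. In the responders 24L, 30L, 30R and 26R, it was 0.224, 0.195, 0.15 and 0.149, above the highest control value of 0.11, while in 35L it was 0.0798.

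**Figure D2:**
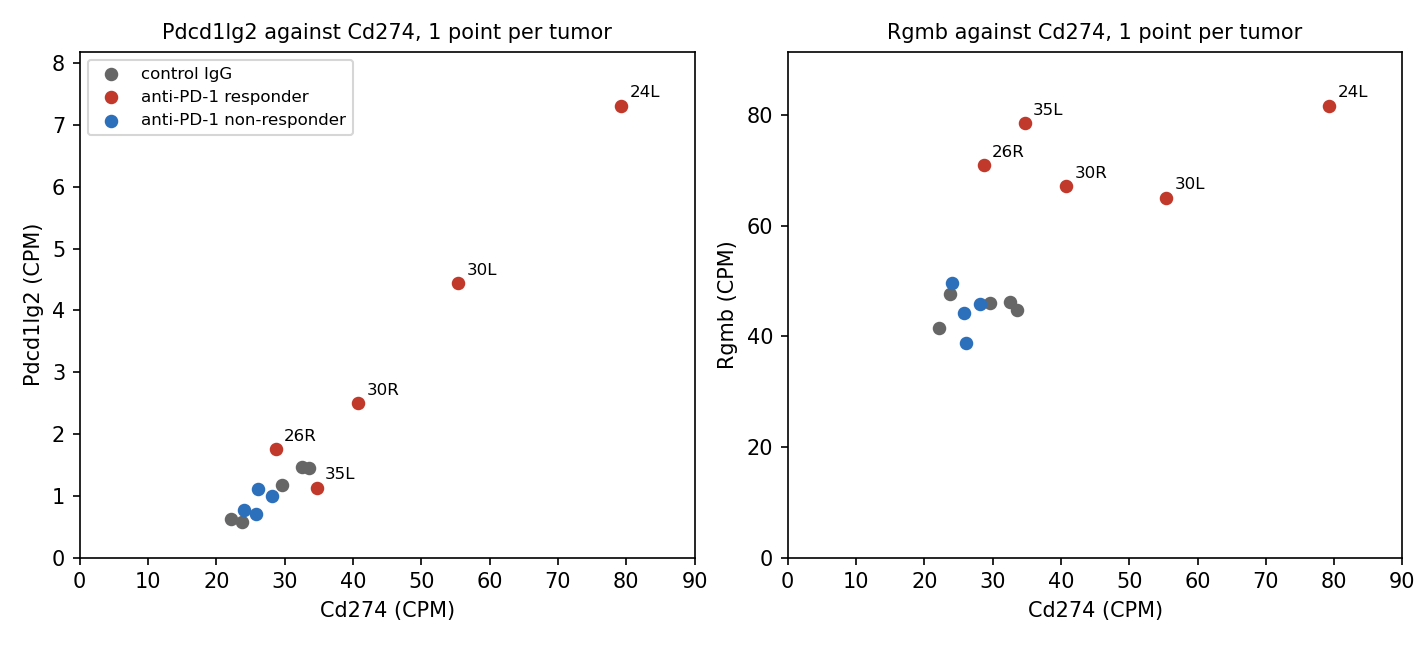
CPM of Pdcd1lg2 (left) and of Rgmb (right) against CPM of Cd274, with a point per tumor, colors for the 3 groups and the names of the responders. Pdcd1lg2 climbs with Cd274 up to tumor 24L (7.31 and 79.3 CPM), whereas Rgmb is at 65.1 CPM or more in every responder whatever its Cd274.

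Rgmb, the PD-L2 binding partner, set the groups apart more cleanly than its ligand did. The control tumors 14L, 14R, 16R, 17R and 20R had 44.7, 46.3, 47.7, 46.1 and 41.5 CPM. The responders 24L, 26R, 30L, 30R and 35L had 81.7, 71.0, 65.1, 67.1 and 78.5 CPM, and the non-responders 29L, 32R, 33L and 33R had 45.9, 49.7, 44.2 and 38.8 CPM. Every responder exceeded every other tumor, and the control and non-responder ranges overlapped. Rgmb had a log2 fold change of 0.68 ± 0.08 (SE) for responders against control IgG and 0.70 ± 0.09 against non-responders, a smaller change than that of Pdcd1lg2 with a much smaller error. For non-responders against control IgG it was -0.02 ± 0.09.

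The order of the responders differed between these genes. Cd274 and Pdcd1lg2 both ran from 24L through 30L to 30R, with 26R and 35L lowest, whereas Rgmb was highest in 24L and 35L and lowest in 30L. Over the 14 tumors, the Pearson r of log2 CPM was 0.961 for Cd274 with Pdcd1lg2 and 0.715 for Cd274 with Rgmb. With group means subtracted, it was 0.92 and 0.192, and for Pdcd1lg2 with Rgmb it went from 0.696 to -0.016. The points are tumors of 11 mice, and some share a mouse. No p is attached to these values.

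Neo1, the receptor for RGM proteins, had no such pattern. Control tumors ranged from 78.8 to 120 CPM with a median of 117, responders from 97.4 to 116 with a median of 106, and non-responders from 57.0 to 115 with a median of 106. The lowest levels were those of 33R and 14R, at 57.0 and 78.8 CPM, far under the other tumors. Neo1 had a log2 fold change of -0.03 ± 0.16 (SE) for responders against control IgG, 0.15 ± 0.17 against non-responders and -0.18 ± 0.17 for non-responders against control IgG. Tumors 14R and 33R also had the highest summed CPM of 4 skeletal muscle markers, 1030 and 578 against at most 354 in the other 12. The part of this in the level of Neo1 was not tested.

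The ratio of Rgmb to Neo1 in TPM was 0.881 ± 0.204 (SD, n = 5) in control tumors, 1.45 ± 0.186 (n = 5) in responders and 1.02 ± 0.289 (n = 4) in non-responders. Responders ran from 1.2 to 1.62. The ratio of control tumor 14R, 1.24, and that of non-responder 33R, 1.41, lay inside that range, both tumors being those with little Neo1.

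**Figure D3:**
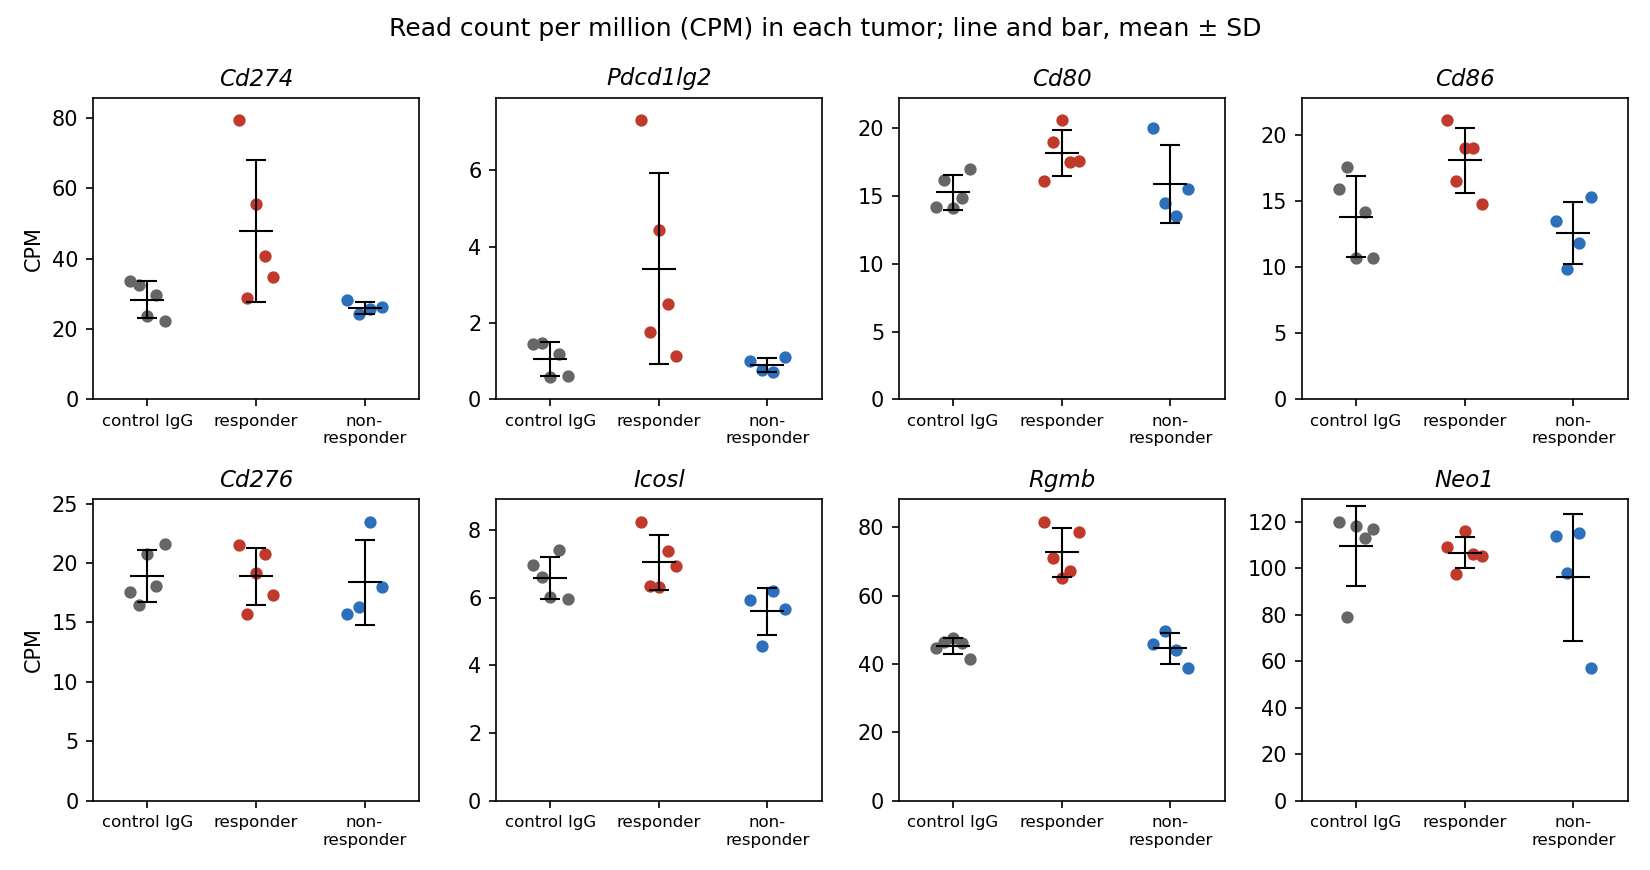
CPM of each of the 8 genes in every tumor by group, each panel with its own axis from 0. The horizontal line is the group mean and the bar its SD, and the 5 responders sit at 65.1 CPM or more for Rgmb with no other tumor above 49.7.

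The ligands of CD28 and CTLA-4 differed by less. Cd80 had 14.2, 16.2, 14.1, 14.9 and 17.0 CPM in control tumors 14L, 14R, 16R, 17R and 20R, and 16.1, 19.0, 20.6, 17.5 and 17.6 in responders 24L, 26R, 30L, 30R and 35L. The non-responders 29L, 32R, 33L and 33R had 20.0, 14.5, 13.5 and 15.5 CPM, so that 29L exceeded all responders but 30L. For Cd80 the log2 fold change was 0.25 ± 0.11 (SE) for responders against control IgG and 0.19 ± 0.12 against non-responders.

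Cd86 had 15.9, 17.6, 10.7, 14.2 and 10.7 CPM in the same control tumors, 21.1, 16.5, 19.0, 19.0 and 14.8 in the responders and 13.5, 9.82, 11.8 and 15.3 in the non-responders. Of the 5 responders, 3 lay above all other tumors, and 26R and 35L lay within the control range. For Cd86 the log2 fold change was 0.39 ± 0.16 (SE) for responders against control IgG and 0.52 ± 0.17 against non-responders. Cd86 stayed below Cd80 in TPM in every tumor, with a ratio of 0.613 ± 0.141 (SD, n = 5) in control tumors, 0.671 ± 0.133 (n = 5) in responders and 0.531 ± 0.108 (n = 4) in non-responders, which overlapped.

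Icosl, the ICOS ligand, ranged from 5.97 to 7.43 CPM in control tumors with a median of 6.62, from 6.31 to 8.26 in responders with a median of 6.93, and from 4.59 to 6.2 in non-responders with a median of 5.8. All responders exceeded all non-responders, though 30L (6.31 CPM) and 33L (6.2 CPM) differed by little, and both groups overlapped the control tumors. For Icosl the log2 fold change was 0.10 ± 0.12 (SE) for responders against control IgG and 0.33 ± 0.12 against non-responders, and -0.24 ± 0.12 for non-responders against control IgG.

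Cd276, the gene of B7-H3, overlapped between all groups. It ranged from 16.5 to 21.6 CPM in control tumors, from 15.7 to 21.5 in responders and from 15.7 to 23.5 in non-responders, where 33L was highest. For Cd276 the log2 fold change was 0.00 ± 0.12 (SE) for responders against control IgG and 0.04 ± 0.13 against non-responders.

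In the fit of edgeR across all genes, Cd274, Pdcd1lg2 and Rgmb, 3 of the 8 genes, were called (adjusted p under 0.05) higher in responders than in control tumors, where 7.88% of the 16287 genes tested were called higher and 13.2% in either direction. The same 3 were called higher in responders than in non-responders, where 5.08% of genes were called higher and 9.9% in either direction. Both comparisons share the responder tumors, and since the genes were chosen with these values known, the counts are given without a reading. All responders exceeded all control tumors for Rgmb alone, as for 8.34% of the genes tested. All responders exceeded all non-responders for Cd274, Pdcd1lg2, Icosl and Rgmb, as for 6.8% of genes.

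The calls of Cd274 and Pdcd1lg2 were lost in some fits that left out 1 tumor, and that of Rgmb was not. Without responder 24L, the log2 fold changes of Cd274 and Pdcd1lg2 against control IgG were 0.49 and 1.21 and neither was called. In the 10 fits that each left out 1 tumor, Cd274 was called in 4, Pdcd1lg2 in 7 and Rgmb in 10. Cd274 lost its call without 16R, 17R, 20R, 24L, 30L or 30R, and Pdcd1lg2 without 16R, 20R or 24L. Not every lost call went with a smaller difference. Cd274 had 0.78 ± 0.25 without 17R and 0.81 ± 0.24 without 30R, beside 0.75 with all tumors. Against non-responders, Cd274 was called in 3 of 9 such fits, Pdcd1lg2 in 6 and Rgmb in 9, and without 24L the first 2 had log2 fold changes of 0.62 and 1.46. In 9 other settings of the fit, Rgmb was called in all 9 in both comparisons. Against control IgG, Cd274 was called in 8, losing its call when only the 2 groups compared were fitted (0.75 ± 0.25), and Pdcd1lg2 in 9. Against non-responders, Cd274 was called in 6 and Pdcd1lg2 in 7, and both calls were lost with 1 tumor per mouse (0.94 and 2.15) and with only the 2 groups (0.88 and 1.94).

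For non-responders against control IgG, edgeR called none of the 8 genes, and 0.0% of the 16287 genes. At an unadjusted p under 0.05, it found 0 of the 8 and 758 of all genes. DESeq2 called 0 of the 8 and 16 of all genes. Their log2 fold changes lay between -0.25 (Pdcd1lg2) and 0.05 (Cd80). That of Neo1 was -0.29 ± 0.16 without 14R and -0.01 ± 0.12 without 33R. That of Rgmb was -0.02 ± 0.09 and 0.03 ± 0.08.

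**Figure D4:**
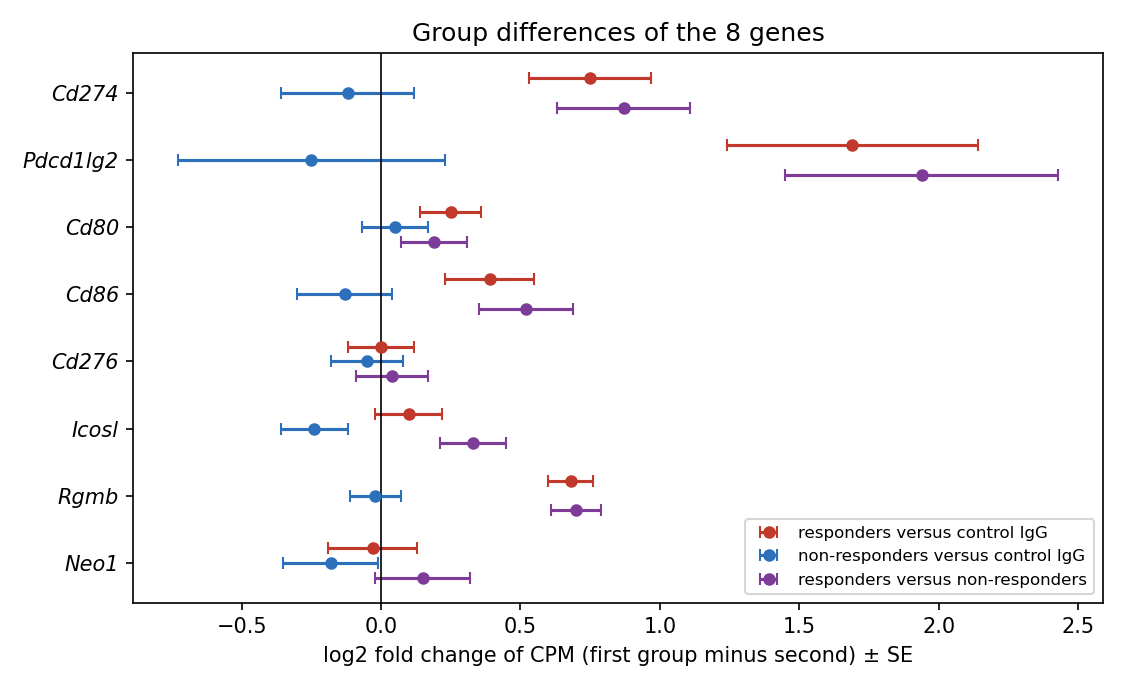
Log2 fold change of CPM for the 8 genes, first group minus second, in the 3 comparisons, with bars of 1 SE on either side. Pdcd1lg2 reaches 1.94 in responders against non-responders with an SE of 0.49, while the SE of Rgmb is 0.08 to 0.09.

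The flanks of 1 mouse were compared in 3 mice. In mouse 14 (control IgG), the left tumor had 1.03 times the CPM of the right for Cd274, 0.983 for Pdcd1lg2 and 0.965 for Rgmb, but 1.52 for Neo1. In mouse 30 (responders), the ratios were 1.36, 1.77, 0.97 and 1.09 in the same order, so the pair differed in both PD-1 ligands and hardly in Rgmb. In mouse 33 (non-responders), they were 0.991, 0.639, 1.14 and 2.03. The other 4 members ran between 0.77 (Cd86 in mouse 33) and 1.3 (Cd276 in mouse 33) in CPM. In TPM, the left tumor of mouse 33 had 1.39 times the level of the right for Cd274, 1.89 for Cd276, 1.57 for Icosl, 1.59 for Rgmb and 2.89 for Neo1, so that flanks near each other in CPM were not so in TPM.

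The genes whose log2 CPM followed each member most closely over the 14 tumors differed from member to member, except that Cd274 and Pdcd1lg2 shared Batf2. For Cd274 they were Batf2 (r = 0.963), Icos (0.962) and Rnf19b (0.959), and for Pdcd1lg2 they were Irgm2 (0.966), Igtp (0.965) and Batf2 (0.963). Batf2, Irgm2 and Igtp are interferon-induced genes. These 6 values stayed between 0.918 and 0.929 with group means subtracted. For Cd86 they were Ripk3 (0.938), Il10rb (0.931) and Pmaip1 (0.93), and for Icosl they were Birc3 (0.865), Crym (0.821) and Pak1 (0.821).

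Rgmb was followed by Apbb1 (r = 0.955), Cant1 (0.954) and Fam117a (0.951). With group means subtracted, these values dropped to 0.744, 0.842 and 0.672. Neo1 was followed by Hivep2 (0.983), Chd6 (0.982) and Dock8 (0.978), with 0.982 to 0.987 once group means were subtracted. Cd80 was followed by Kctd20 (0.88), Rpap2 (0.868) and Gcnt3 (0.852). Cd276 was followed by Ebf1 (0.9), the lysyl oxidase Loxl2 (0.832) and the collagen Col14a1 (0.805).

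Like the PD-1 ligands and Rgmb, most T cell and dendritic cell markers were called higher in responders than in control tumors. The summed CPM of 6 T cell markers (Cd3d, Cd3e, Cd3g, Cd4, Cd8a and Cd8b1) ran from 15.7 to 37.1 in control tumors, from 35.2 to 71.3 in responder tumors and from 19.9 to 25.4 in non-responder tumors. All 6 were called higher in responders than in control tumors by the edgeR fit, where 7.88% of all genes tested were called higher and 13.2% in either direction. The sum of 6 dendritic cell markers (Flt3, Zbtb46, Xcr1, Clec9a, Ccr7 and Cd209a) was 12.2 to 18.9, 23.3 to 34.0 and 13.1 to 15.0, with 5 called higher, and no marker of either list was at 0. Responder 24L had the highest sum in both lists and also the highest Cd274, Pdcd1lg2 and Rgmb. Among responders, 26R had the lowest sums and the lowest Cd274, while Rgmb was lowest in 30L and Pdcd1lg2 in 35L. Erythroid markers ran the other way, with 3 of 4 called lower in responders. The part of these in the results was not tested.

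Outside the 8 genes, 4 lists of their receptors, relatives, downstream signaling and upstream regulators were examined, with 63 of 74 genes tested. In responders against control IgG, 17 rose and 3 fell, beside 7.88% of all genes tested called higher and 13.2% in either direction. Against non-responders, 18 rose and 2 fell, beside 5.08% and 9.9%. In non-responders against control IgG, edgeR called none and found 1 gene at an unadjusted p under 0.05, Vsig4, named here after its values were seen. Without 24L the called genes went from 20 to 13 against control IgG and to 11 against non-responders. Without 30R they were 13 in either comparison, and without 32R they were 10 against non-responders.

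Of the 14 co-signaling receptors and their signaling partners, 7 rose in responders against control IgG and 8 against non-responders, with median log2 fold changes of 0.63 and 0.69 beside -0.01 and 0.01 over all genes. Called higher in these comparisons were 7.88% and 5.08% of all genes tested. Pdcd1, the gene of PD-1 itself, had 13.3, 9.69, 7.15, 10.1 and 6.58 CPM in control tumors, 18.5, 10.2, 11.1, 15.9 and 14.3 in responders and 8.12, 8.27, 5.47 and 7.98 in non-responders. It was higher in every responder than in any non-responder, with a log2 fold change of 0.91 ± 0.22 (SE, adjusted p = 0.0244 by edgeR), and did not pass against control IgG (0.58 ± 0.21, adjusted p = 0.0789). The first call was lost without 24L, 30R or 32R.

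Icos, the receptor of the Icosl product, rose in responders against control IgG (log2 fold change 0.83 ± 0.24, adjusted p = 0.0336) and against non-responders (0.92 ± 0.26, adjusted p = 0.0381), calls lost without 24L, 30L or 30R, the first also without 16R or 20R and the second without 32R or 33R. Cd28 (0.72 ± 0.24, adjusted p = 0.0604) and Ctla4 (0.21 ± 0.24, adjusted p = 0.618) did not pass against control IgG. The kinases Lck (0.90 ± 0.18, adjusted p = 0.00504) and Zap70 (0.89 ± 0.18, adjusted p = 0.00515) and the PI3-kinase subunit Pik3cd (0.68 ± 0.1, adjusted p = 0.00135) rose and kept their calls against control IgG whichever tumor was left out. Of the phosphatases that PD-1 recruits, Ptpn6 (SHP-1) rose by 0.53 ± 0.1 (adjusted p = 0.00484), and Ptpn11 (SHP-2) had a log2 fold change of 0.00 ± 0.11 (adjusted p = 0.986).

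Of the other B7-like genes and PD-L1 regulators, 6 of 11 were tested, 2 of which rose against control IgG, where 7.88% of all genes tested were called higher. Vsir, the gene of the inhibitory ligand VISTA, went from 72.3 CPM ± 4.41 (SD, n = 5) to 109 ± 15.0 (n = 5), a log2 fold change of 0.59 ± 0.1 (SE, adjusted p = 0.00305 by edgeR). Tnfrsf14, the ligand of BTLA, had a log2 fold change of 0.56 ± 0.16 (adjusted p = 0.0309), lost without 16R, 20R, 24L, 30L or 30R. Vsig4, an inhibitory B7-like protein of macrophages, had 2.4 CPM ± 0.408 (SD, n = 5) in control tumors, 2.08 ± 0.549 (n = 5) in responders and 4.55 ± 1.39 (n = 4) in non-responders, which all lay above every control tumor. It was lower in responders than in non-responders (log2 fold change -1.13 ± 0.24, adjusted p = 0.0137 by edgeR). It did not pass in responders against control IgG (-0.21 ± 0.22, adjusted p = 0.583 by edgeR) or in non-responders against control IgG (0.91 ± 0.23, adjusted p = 0.74 by edgeR). Cmtm6, which keeps PD-L1 at the surface, had 0.06 ± 0.08 (adjusted p = 0.678). Vtcn1, the gene of B7-H4, was at most 0.447 CPM and was not tested.

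Of the RGM, neogenin and BMP genes, 27 of 31 were tested, 3 of which rose and 3 fell in responders against control IgG, with a median log2 fold change of -0.02, where 7.88% of all genes tested were called higher and 13.2% in either direction. Rgma, the paralog of Rgmb, had 21.5, 17.7, 26.1, 20.4 and 20.6 CPM in control tumors, 15.2, 13.1, 15.6, 16.4 and 18.0 in responders and 16.6, 23.0, 22.5 and 16.1 in non-responders. Its level fell by 0.44 on the log2 scale ± 0.13 (SE, adjusted p = 0.0373 by edgeR) against control IgG, opposite in sign to Rgmb, and this call held in 2 of the 10 fits without 1 tumor (those without 14R or 35L) and in 6 of the 9 other settings, lost on both log2(TPM) scales and with no filter on low counts. Ntn1, the gene of netrin-1, another neogenin ligand, rose by 0.92 ± 0.22 (adjusted p = 0.0149) and kept its call in all 10.

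Of the BMP receptors and signal carriers, Acvr2a fell by 0.43 ± 0.12 (adjusted p = 0.025), a call lost without 17R, 30L or 30R. Smad7, an inhibitor of the pathway, fell by 0.42 ± 0.13 (adjusted p = 0.0396) and, of the fits that left out 1 tumor, kept its call in those without 14R or 30L. Both were called in 6 of the 9 other settings, lost on both log2(TPM) scales and, for Acvr2a, with 1 tumor per mouse or, for Smad7, with no filter on low counts. Id1, a BMP target, rose by 0.45 ± 0.11 (adjusted p = 0.0188), lost without 24L or 30R, and Eng, an endothelial co-receptor, rose by 0.49 ± 0.12 (adjusted p = 0.0149) in all 10. The carriers Smad1 (-0.02 ± 0.08), Smad5 (-0.15 ± 0.08) and Smad4 (-0.11 ± 0.06) did not pass, nor did Id2 (0.47 ± 0.16) and Id3 (0.24 ± 0.25).

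Of the interferon-gamma and STAT6 genes upstream of the PD-1 ligands, 16 of 18 were tested, 5 of which rose against control IgG and 6 against non-responders. In these comparisons, 7.88% and 5.08% of all genes tested were called higher. Ifng had 0.682, 0.683, 0.289, 0.434 and 0.229 CPM in control tumors, 2.64, 0.991, 1.77, 1.51 and 1.02 in responders and 0.523, 0.324, 0.51 and 0.444 in non-responders. Every responder exceeded every other tumor, and 24L, 30L and 30R led as they did for Cd274 and Pdcd1lg2. The log2 fold change was 1.77 ± 0.35 (SE, adjusted p = 0.00515 by edgeR) against control IgG. Irf1 rose by 0.76 ± 0.19 (adjusted p = 0.0197), a call lost without 20R or 24L.

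On the STAT6 side, the receptor genes Il4ra (0.37 ± 0.07, adjusted p = 0.00515) and Il13ra1 (0.72 ± 0.15, adjusted p = 0.0081) rose in responders against control IgG, while Stat6 itself had a log2 fold change of 0.04 ± 0.07 (adjusted p = 0.764). Their cytokines Il4 and Il13 were at most 0.0317 and 0.0436 CPM in any tumor and were not tested.

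**Figure D5:**
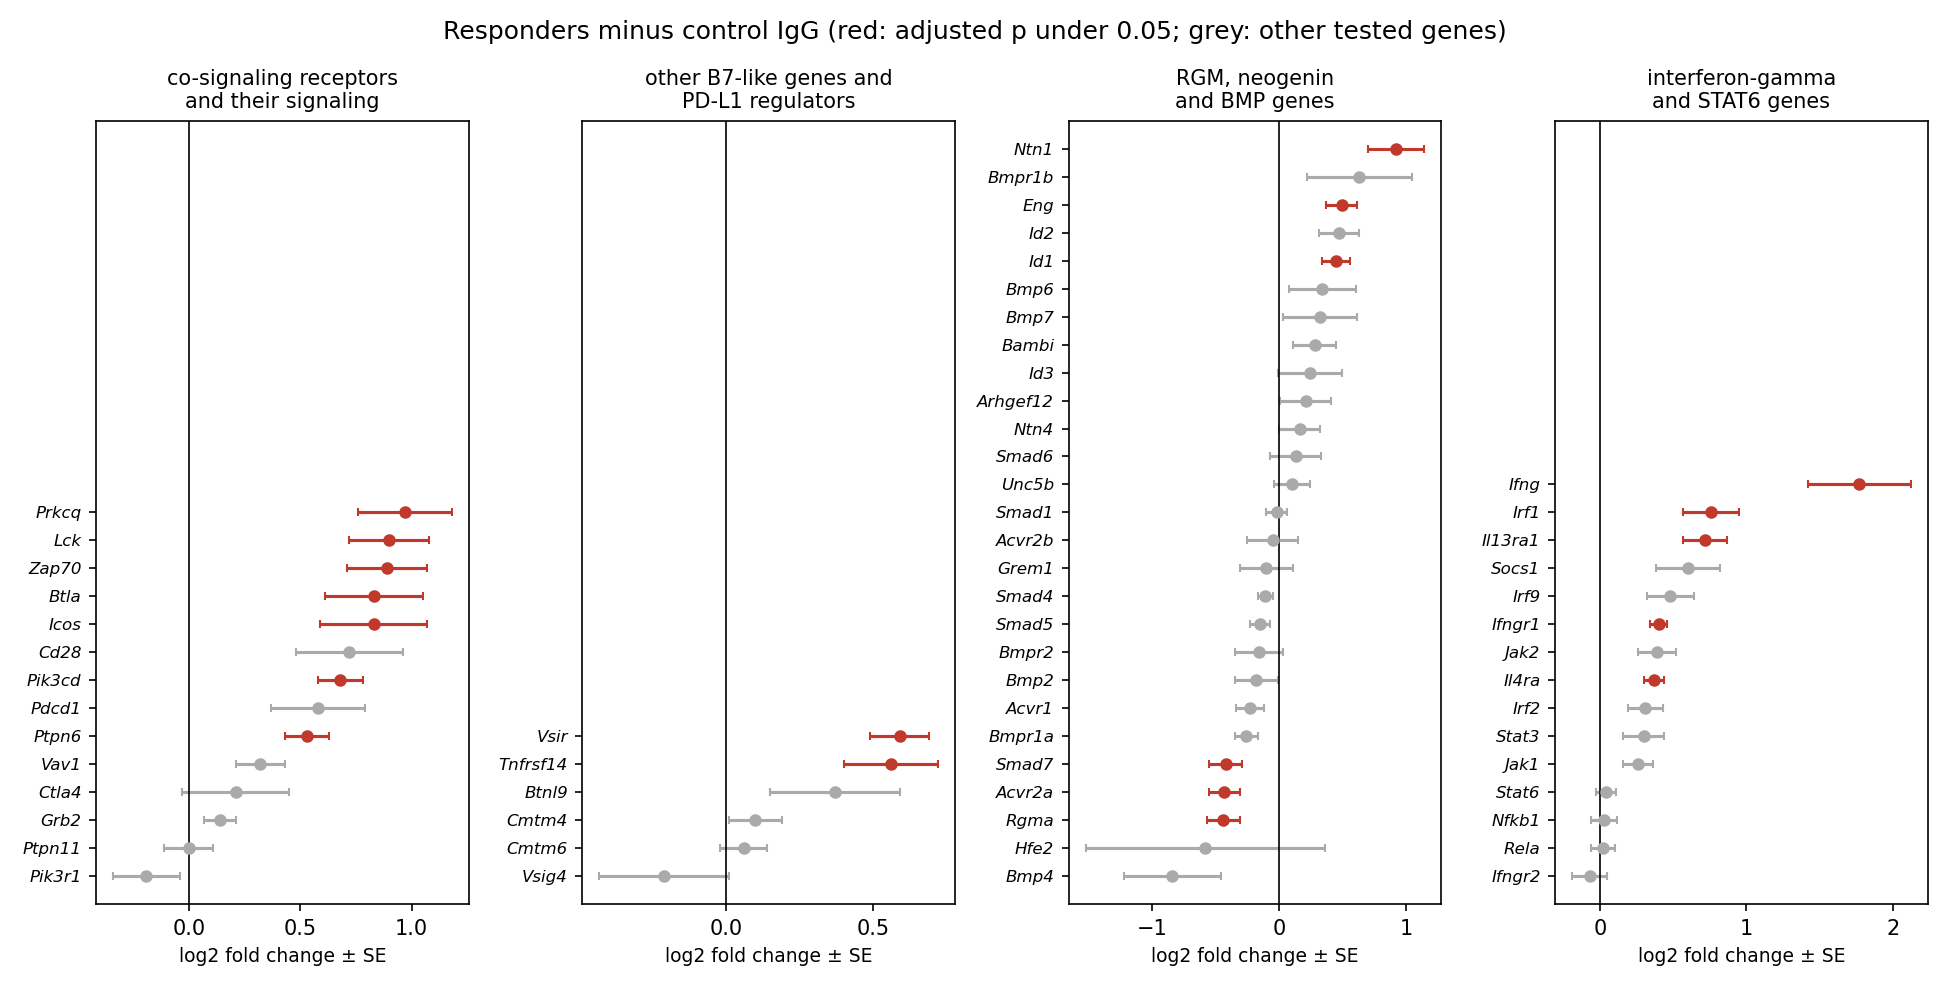
Log2 fold change, responders minus control IgG, of tested genes of the 4 lists, with bars of 1 SE and a separate horizontal axis in each panel. Red marks an adjusted p under 0.05 in edgeR, with Ifng at 1.77 the largest rise and Rgma, at -0.44, among the 3 that fell.

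The mix of transcripts of a gene, seen in its abundance-weighted length, was not used in choosing the genes and was tested with limma over 12540 genes. The files give 1 transcript each for Cd274, Pdcd1lg2, Cd80 and Rgmb, whose length cannot vary. Cd86, Cd276, Icosl and Neo1 have 4, 4, 4 and 6 transcripts, and none was called in any comparison. Of all genes, 0.0239%, 0.0% and 0.00797% were called in responders against control IgG, non-responders against control IgG and responders against non-responders. The lowest unadjusted p of these 4 genes was that of Neo1, whose mean length was 5257 bases in the responder tumors against 5115 bases in the non-responders, or 0.039 ± 0.019 more on the log2 scale (SE, adjusted p = 0.928 by limma). None of the 4, a count of 0, had an unadjusted p under 0.05 in a comparison.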

How the data were processed

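The data are RNA-seq libraries of 14 whole CT26 tumors. The members and the gene lists were chosen with earlier results of these data known. The authors used STAR for alignment (build mm10) and RSEM for gene quantification. Of the deposited columns, expected counts, TPM and the abundance-weighted transcript length were used, and FPKM was not. The annotation release and the strand setting are not given in the sources used here. Ensembl identifiers were matched to symbols for 53620 of 53801 genes, and positions were taken from GENCODE on GRCm38 (mm10).

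Expected counts were rounded to whole numbers, genes of low count were removed with filterByExpr, and CPM was computed with TMM library sizes. The quasi-likelihood test of edgeR 4.0.16 (R 4.3.3) was fitted to all 16287 remaining genes and the 3 groups, and p-values were Benjamini-Hochberg adjusted over all of them. A gene was called at an adjusted p under 0.05. Log2 transcript length was compared with limma 3.58.1 over the 12540 genes whose length varied. Standard errors of log2 fold changes came from these fits. Both tests were tested on simulated data. DESeq2 1.42.0, limma-voom with the mouse as a random effect, log2(TPM + 1) and other settings were alternatives. Named were the 8 members, list genes that were called or whose role in the pathway needed their value (1 list gene that enters the counts is not reported here), and per member the 3 genes of highest Pearson r of log2 CPM (prior count 2) among the 12197 genes with a mean of at least 1. Promoter sequences came from RefSeq (GRCm38.p6).

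Totals of expected counts ran from 33237744 to 48481461 per tumor. No tumors of a group agreed within sampling noise, as the chi-square of their counts was at least 21.2 per degree of freedom, and 33R (135 to 196) and 14R (67.1 to 90.1) lay farthest from the others of their groups. Groups were taken from the treatment and response labels. The labels do not state that the tumors are biological replicates beyond their mouse numbers, so p-values measure the spread between tumors, some of which share a mouse.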

Additional observations from a re-analysis of the deposited data

Results flagged for a closer look

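Among 24 sets of member values by group, 1 had a tumor far from the others by Dixon's gap test. Neo1 was at 78.8 CPM in control tumor 14R and at 113 to 120 CPM in the other 4 control tumors, a gap of 0.822 of the group's range against a critical value of 0.71. Chance flags about 1 in 20 such sets.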

How the results depend on the processing

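Rgmb was called higher in responders under each of the 9 other settings and each fit without 1 tumor, in both comparisons. Leaving out 1 tumor at a time gave 1 to 3 of the 8 genes called in either comparison of responders, and 0 for non-responders against control IgG. The genes called over the whole table then ranged from 1190 to 1944 for responders against control IgG (1190 without 20R, 1192 without 24L, 1387 without 30R) and from 569 to 1978 against non-responders (569 without 24L, 615 without 32R, 686 without 30R, 793 without 33R), beside 2147 and 1612 with all tumors. List genes called ranged from 13 to 21 and from 10 to 21, and genes with a transcript length difference from 1 to 4 and from 1 to 2.

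In responders against non-responders, DESeq2 called 2590 genes and 5 members (Cd86 and Icosl added), limma-voom with the mouse as a random effect 2973 genes, and the fit of only the 2 groups 689 genes and 1 member, Rgmb. The correlation between tumors of 1 mouse in limma-voom was -0.282, from the 3 mice with 2 tumors. A negative value narrows the errors of group means, so that fit was no guard against shared mice. The fit with 1 tumor per mouse kept the left tumor of each pair and so left out 14R, 30R and 33R. It called 520 genes, 7 list genes and Rgmb alone. Log2(TPM + 1) and log2(TPM + 0.1) each called 6 members, with Cd80, Cd86 and Icosl added. On these scales the median of all genes was 0.169 and 0.235 above 0 in that comparison (0.117 and -0.107 on the latter against control IgG for responders and non-responders), and relative to it Rgmb differed by 0.75 and 0.72 and Cd80 by 0.26 and 0.22. In non-responders against control IgG, DESeq2 called 16 genes and edgeR without the filter 3. Transcript length calls were 1 for responders against control IgG with only the 2 groups and with 1 tumor per mouse, and 0 and 2 against non-responders, beside 3 and 1. For responders against control IgG, 2797 genes were called with 1 tumor per mouse and 3043 with only the 2 groups, beside 2147. The cause of these changes was not tested. Of 440 member log2 fold changes under other settings, 428 moved by less than 1 SD between tumors, 12 by more, all on the TPM scales, and 0 called values changed sign. Cd276 and Neo1, and Cd80 and Rgmb in non-responders against control IgG, changed sign between settings around 0. No paired analysis was possible because the groups share no replicate number.

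The 3 genes nearest to Cd274, Pdcd1lg2, Icosl and Neo1 were all replaced when group means were subtracted. Depth limits Pdcd1lg2 most, at 0.578 to 7.31 CPM.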

Other observations

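Markers of the other cell types that a whole tumor can hold are given as summed CPM (lowest to highest tumor) in control, responder and non-responder tumors. Against control IgG, 7.88% of all genes tested were called higher in responders and 13.2% in either direction. The 6 macrophage markers, the most abundant immune list, gave 1280 to 1480, 1460 to 1780 and 1170 to 1480, with 1 of 6, Adgre1, called higher in responders than in control tumors by edgeR (log2 fold change 0.35, adjusted p = 0.0278). B cell markers gave 1.94 to 2.44, 2.62 to 4.51 and 1.78 to 3.45. Ms4a1 was called higher in responders than in control tumors (2.49 ± 0.7, adjusted p = 0.03 by edgeR), at low means of 0.394 and 0.0651 CPM. Cd79a (0.72 ± 0.33) and Cd79b (0.47 ± 0.25) were not called. Neutrophil markers gave 22.5 to 63.5, 19.0 to 41.4 and 24.4 to 49.3, with a median log2 fold change of -0.52 in responders against control IgG. Csf3r was called higher in that comparison (0.94 ± 0.17, adjusted p = 0.00305 by edgeR). S100a8 (-0.85 ± 0.42), S100a9 (-0.69 ± 0.42) and Cxcr2 (-0.34 ± 0.34) had negative values and were not called. Fibroblast markers gave 1190 to 1720, 1340 to 2610 and 1030 to 2600, with Col1a1 called higher in responders than in control tumors (1.06 ± 0.31, adjusted p = 0.0346 by edgeR) and Dcn lower (-0.88 ± 0.18, adjusted p = 0.00573). Endothelial markers gave 121 to 189, 181 to 233 and 127 to 195. Epidermal keratin markers gave 6.94 to 672, 10.5 to 935 and 130 to 282. Erythroid markers gave 59.9 to 1420, 42.9 to 206 and 276 to 1500, skeletal muscle markers 99.2 to 1030, 20.4 to 354 and 72.0 to 578, and colon epithelial markers 249 to 362, 313 to 448 and 234 to 510. Most of the colon sum was Krt20. The median log2 fold change of the colon list in responders against control IgG was -0.44. Cdx2 was called lower (-1.97 ± 0.55, adjusted p = 0.0303 by edgeR), at low means of 0.148 and 0.57 CPM. Krt20 had a positive value (0.47 ± 0.2) and was not called. The part of all these markers in the levels of the B7 family ligands, Rgmb and Neo1 was not tested.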
